A study of Homo sapiens with 11 samples.

Results

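The tumour suppressor p53 is a transcription factor whose direct target genes were followed here in 11 RNA libraries of hTert-HME1, a telomerase-immortalised line of human mammary epithelium. The genes are direct p53 targets outside the BCL2 and death receptor families, given as 31 gene symbols. A row of the deposited table belonged to the set if its Ensembl identifier mapped to one of these symbols and its log2 value was at least 3.32 in at least 2 libraries. Of the 31 symbols 30 had a row and all 30 passed that filter, out of 17945 genes that passed it and were tested. The remaining symbol, TNFRSF6B, was not analysed here.

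Total RNA, depleted of ribosomal RNA, was sequenced from cells at passage 6 in Mammary Epithelial Growth Medium. There were 3 libraries with BRCA2 siRNA grown without EGF (replicates A, B and C), 2 with control siRNA without EGF (A and C), 3 with BRCA2 siRNA with EGF and 3 with control siRNA with EGF. EGF, epidermal growth factor, drives proliferation of these cells, and BRCA2 is a gene of DNA repair by homologous recombination. All groups share the line, the telomerase gene and lipid transfection with an siRNA. Each target had a single siRNA, so an effect on BRCA2 cannot be told apart from an effect of the same siRNA on other RNAs.

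p53 is kept low in unstressed cells by MDM2, a ubiquitin ligase that p53 itself induces, and it accumulates after DNA damage or other stress. It then binds response elements made of a pair of similar half-sites and raises genes that arrest the cell cycle, repair DNA, change metabolism, limit p53 itself or lead to cell death. Cell cycle arrest through p21, the product of CDKN1A, is among the best known of these outputs in epithelial cells.

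The promoters of 3 of these genes are shown because each holds a close match to the p53 response element, searched for as 2 half-sites of 10 letters with a spacer of at most 1 base, the C and G of each half-site core intact and at most 2 mismatches elsewhere. The search covered both strands of 250 bases before to 50 after each RefSeq start site in GRCh38.p14, and capitals mark the match. The limit on mismatches was chosen with the matches in view. The DDB2 promoter, chr11:47214724-47215023 on the plus strand, has a match with 0 mismatches 6 to 26 bases after the start site. The MDM2 promoter, chr12:68808767-68809066 on the plus strand, has one with 2 mismatches between -94 and -75. The AEN promoter, chr15:88621090-88621389 on the plus strand, has one with 2 mismatches between -34 and -15.
DDB2: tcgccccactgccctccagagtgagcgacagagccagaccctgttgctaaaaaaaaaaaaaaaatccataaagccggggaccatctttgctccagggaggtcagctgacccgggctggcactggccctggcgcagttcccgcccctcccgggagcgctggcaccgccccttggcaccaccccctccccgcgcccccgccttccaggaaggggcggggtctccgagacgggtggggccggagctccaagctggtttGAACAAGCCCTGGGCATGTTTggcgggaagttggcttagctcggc
MDM2: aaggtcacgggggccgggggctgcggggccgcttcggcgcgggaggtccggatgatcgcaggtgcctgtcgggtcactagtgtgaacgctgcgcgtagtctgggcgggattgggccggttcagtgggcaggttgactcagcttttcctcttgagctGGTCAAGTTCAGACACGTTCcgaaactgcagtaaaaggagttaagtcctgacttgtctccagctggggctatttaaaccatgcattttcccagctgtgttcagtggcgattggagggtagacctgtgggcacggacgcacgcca
AEN: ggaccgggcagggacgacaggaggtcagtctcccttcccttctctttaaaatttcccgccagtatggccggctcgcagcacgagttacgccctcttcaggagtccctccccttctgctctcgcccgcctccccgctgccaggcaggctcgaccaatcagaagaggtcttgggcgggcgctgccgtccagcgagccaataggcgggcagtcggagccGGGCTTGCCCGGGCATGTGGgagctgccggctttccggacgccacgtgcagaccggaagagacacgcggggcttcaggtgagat
Of all 35116 promoters 187 (0.533%) held such a match. Among these p53 targets 24 genes had a promoter in the table, and AEN, DDB2 and MDM2 held one. With at most 3 mismatches the share was 2.38% of all promoters, and FDXR, GDF15 and SESN1 were added. A match is a description of the letters and no measure of p53 binding in these cells.

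The labels were first checked against BRCA2 transcript, which the libraries labelled BRCA2 siRNA did not have less of. Its log2 value without EGF was 12.48, 12.27 and 12.11 in the libraries labelled BRCA2 siRNA, against 11.44 and 11.65 with control siRNA (0.74 ± 0.13, adjusted p = 0.00397; errors are moderated standard errors throughout). With EGF it was 12.43, 12.37 and 12.40 in the libraries labelled BRCA2 siRNA, against 12.45, 12.13 and 12.48 with control siRNA (adjusted p = 0.999). Directions between the siRNAs are therefore given for the libraries as labelled. BRCA2 transcript also fell on EGF withdrawal with control siRNA (-0.81 ± 0.13, adjusted p = 0.000444). With BRCA2 siRNA its withdrawal difference did not pass (-0.12 ± 0.12, adjusted p = 0.468). All 10 basal mammary epithelial markers passed the filter, as did 6 of 10 luminal and 9 of 10 fibroblast and mesenchymal markers. The leukocyte marker CD14 and the endothelial markers KDR and TEK passed too. The luminal markers KRT19, EPCAM, ELF5 and KIT and the fibroblast marker COL1A2 lay below the filter. So did the leukocyte markers PTPRC, CD3E and ITGAM and the endothelial markers VWF and CDH5. Library depth is unknown, since the deposited values, taken here as log2, hold no counts. No scaling by gene length is stated, so levels are compared between libraries and not between genes. For each gene the replicate A mean equalled that of replicates B and C, to within 7.18e-09, so the values had been centred on this split. The groups are unevenly spread over it, with replicate B missing from control siRNA without EGF, and the centring can have moved part of a group difference. With a term for replicate A in the model 3 calls on the p53 target genes were lost: GDF15 for EGF withdrawal with BRCA2 siRNA (-1.72, adjusted p = 0.0596), XPC for withdrawal with control siRNA (-0.48, adjusted p = 0.0641) and PHLDA3 between the siRNAs without EGF (-0.44, adjusted p = 0.0588). The differences themselves moved little. Target medians were -0.282 for withdrawal with BRCA2 siRNA, -0.275 with control siRNA and -0.051 between the siRNAs without EGF. Without the term they were -0.282, -0.272 and -0.053.

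Without EGF, 13 of the 30 p53 target genes fell with BRCA2 siRNA, and the same 13 fell with control siRNA: CDKN1A, MDM2, CCNG1, TRIAP1, FBXO22, GDF15, RRM2B, XPC, DDB2, TIGAR, SPATA18, AEN and EDA2R. Only PERP rose with BRCA2 siRNA, and PERP, TP53INP1, BTG2 and KITLG rose with control siRNA. In these bulk libraries, fewer cells that express a gene and less RNA of it per cell cannot be told apart.

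Among all genes tested, 27.1% passed in either direction with BRCA2 siRNA (13.8% lower, 13.4% higher). The p53 targets had 14 of 30 past the threshold of 0.05, or 46.7%, with 43.3% lower and 3.33% higher. With control siRNA 50.8% of all genes passed (26.1% lower, 24.7% higher), against 17 of the 30 targets, or 56.7%, with 43.3% lower and 13.3% higher. The median log2 difference of the 30 genes was -0.282 with BRCA2 siRNA and -0.272 with control siRNA, beside medians of 0.003 and -0.004 over all genes. Under a stricter filter, a linear value of at least 100, which all 30 genes pass, the medians over all genes were -0.082 with BRCA2 siRNA and -0.158 with control siRNA, so that the 30 genes stood nearer to them. Of the genes called there, 2458 were lower and 1567 higher with BRCA2 siRNA, and 4384 lower and 2461 higher with control siRNA. With BRCA2 siRNA every library without EGF lay below every library with EGF in 16 of the 30 genes and above in 2, against 24.4% and 22.2% of all genes. With control siRNA it was 13 below and 6 above, against 33.6% and 32.9%. The share of targets that fell thus exceeded that of the 17945 genes tested in both comparisons. Under the stricter filter 13 targets fell with BRCA2 siRNA and 12 with control siRNA. The number of genes tested under that filter is not given here, so shares at like levels were not compared. The share called in either direction with control siRNA lay near that of all genes. Over all genes tested 2190 (12.2%) were lower in both comparisons, which is 88.5% of those lower with BRCA2 siRNA and 46.8% of those lower with control siRNA. For the p53 targets it was 100% of each list. The comparisons share no library but share the estimate of spread. Quantile normalization of the libraries gave 7 higher and 12 lower with control siRNA and a median of -0.129, with the 13 genes still below 0 under both siRNAs and XPC no longer called with control siRNA.

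**Figure D1:**
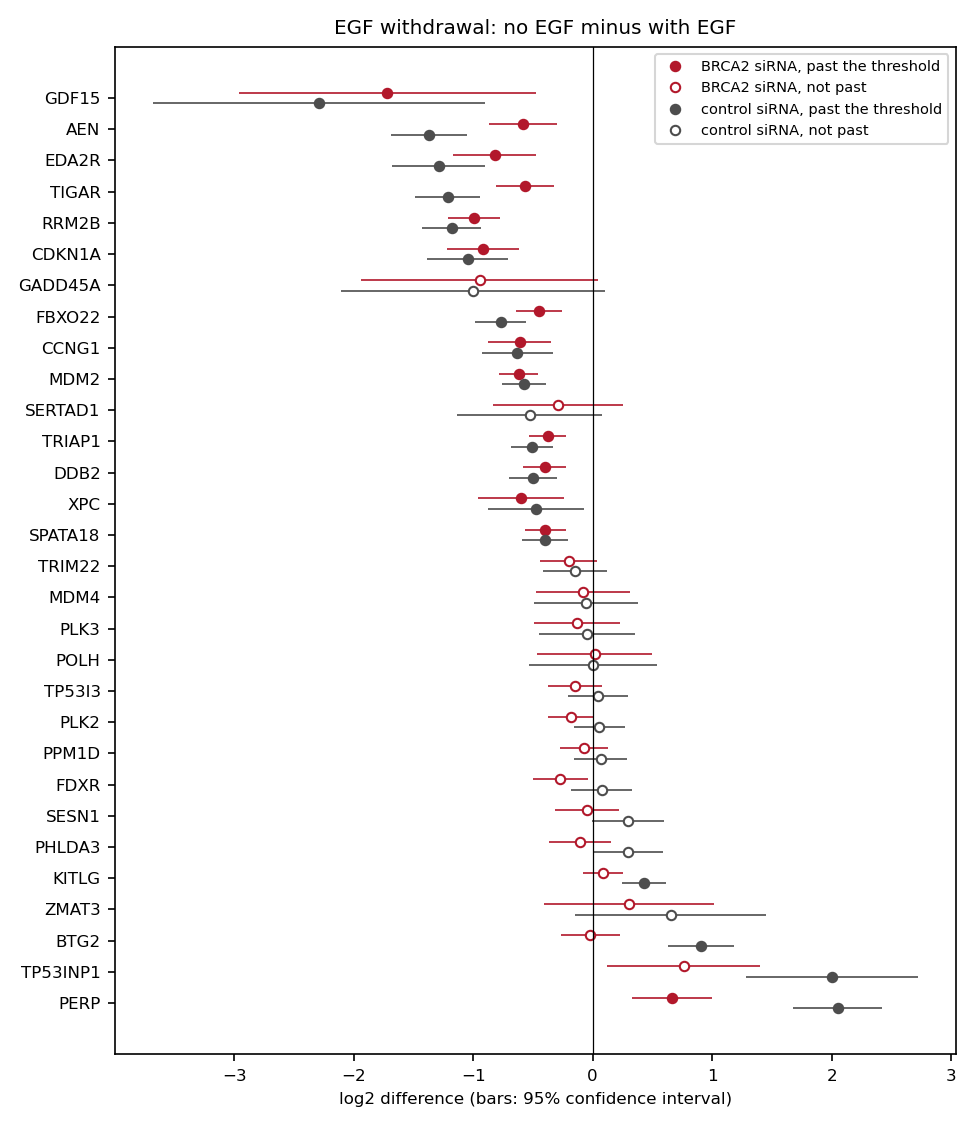
Log2 difference between cells without and with EGF for the 30 p53 target genes, with BRCA2 siRNA in red above control siRNA in grey; bars are 95% confidence intervals and filled points passed the threshold. The 13 genes that fell lie left of 0 under both siRNAs, from GDF15 at -1.72 with BRCA2 siRNA and -2.29 with control siRNA, while PERP lies right of 0 at 0.66 and 2.05.

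**Figure D2:**
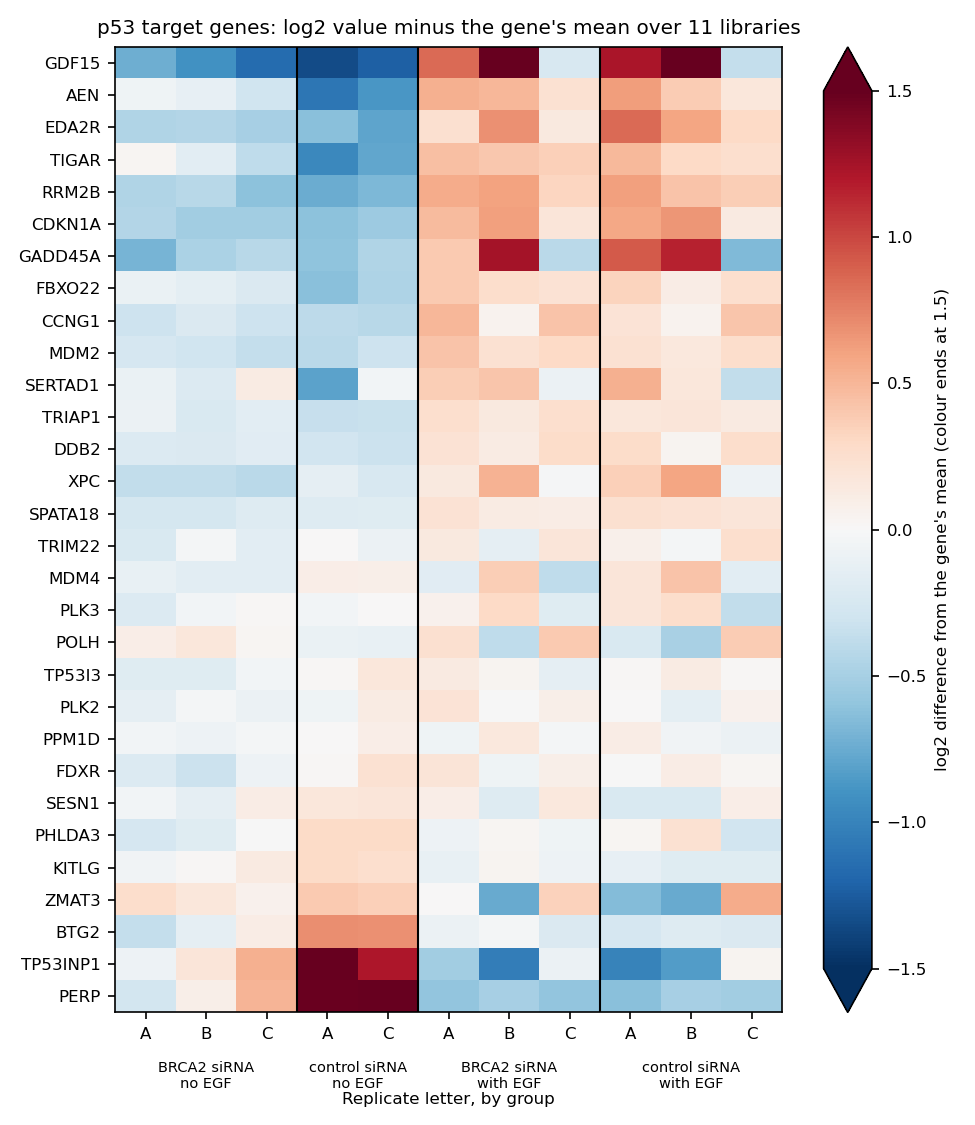
Log2 value minus the gene's mean over the 11 libraries, for each p53 target gene (rows) in each library (columns, by group and replicate letter); colours end at 1.5. For the 13 genes that fell the 5 libraries without EGF, on the left, lie below the gene's mean, some only slightly, such as AEN and TRIAP1 in BRCA2 siRNA A. The exception is TIGAR in BRCA2 siRNA without EGF A, which lies near its mean. GDF15 and XPC also lie below their means in replicate C with EGF under both siRNAs. PERP, TP53INP1 and BTG2 at the bottom are highest in the 2 control libraries without EGF.

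Among the 6 genes grouped as feedback regulators of p53, 4 fell under both siRNAs, against 12.2% of all genes tested. These role groups are small and were drawn with earlier results known, so their counts only describe. MDM2 (ENSG00000135679) had values of 13.02, 12.97 and 12.91 without EGF, against 13.69, 13.50 and 13.57 with EGF, in cells with BRCA2 siRNA. With control siRNA they were 12.86 and 12.96 without EGF, against 13.50, 13.42 and 13.53 with EGF. The libraries without EGF were the lower ones under both siRNAs, with no overlap, and replicates lay close together. MDM2 fell 1.54-fold with BRCA2 siRNA (-0.62 ± 0.07 on the log2 scale, n = 3 and 3, adjusted p = 0.00067) and 1.49-fold with control siRNA (-0.57 ± 0.08, n = 2 and 3, adjusted p = 0.000224). CCNG1 (ENSG00000113328), a cyclin that brings a phosphatase to MDM2, fell too, at -0.61 ± 0.12 with BRCA2 siRNA and -0.63 ± 0.13 with control siRNA (adjusted p = 0.00518 and 0.00267). FBXO22 (ENSG00000167196), part of a ubiquitin ligase, fell, at -0.45 ± 0.09 with BRCA2 siRNA and -0.77 ± 0.10 with control siRNA (adjusted p = 0.00477 and 0.000101). TRIAP1, a small protein that restrains cell death, was also placed in this group. It fell as well, at -0.38 ± 0.07 with BRCA2 siRNA and -0.50 ± 0.08 with control siRNA (adjusted p = 0.00435 and 0.000396). The p53 inhibitor MDM4 and the phosphatase PPM1D, which removes damage-induced phosphates from p53, did not pass, with differences of -0.08 and -0.07 with BRCA2 siRNA and -0.05 and 0.07 with control siRNA.

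In the group of 9 growth arrest genes 2, CDKN1A and GDF15, fell under both siRNAs, against 12.2% of all genes tested. BTG2 rose with control siRNA. CDKN1A (ENSG00000124762), the cyclin-dependent kinase inhibitor p21, was at 11.08, 11 and 11 without EGF, against 11.99, 12.14 and 11.70 with EGF, in cells with BRCA2 siRNA. In cells with control siRNA it was at 10.90 and 10.97 without EGF, against 12.10, 12.18 and 11.66 with EGF. The 5 libraries without EGF all lay below the 6 with EGF, and replicate C was the lowest of each group with EGF. The fall was 1.89-fold with BRCA2 siRNA (-0.92 ± 0.14, adjusted p = 0.00157) and 2.06-fold with control siRNA (-1.04 ± 0.15, adjusted p = 0.000266).

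GDF15 (ENSG00000130513), a secreted stress cytokine, gave the lowest difference of the set and the widest interval. Its values with BRCA2 siRNA were 8.14, 7.97 and 7.72 without EGF, against 9.73, 10.62 and 8.63 with EGF. With control siRNA they were 7.53 and 7.65 without EGF, against 10.10, 11.02 and 8.52 with EGF. The groups did not overlap, but the libraries with EGF spread widely, replicate B being highest and replicate C lowest under both siRNAs. The difference was -1.72 ± 0.56 with BRCA2 siRNA (adjusted p = 0.0434) and -2.29 ± 0.63 with control siRNA (adjusted p = 0.0109). With BRCA2 siRNA the call was lost on leaving out any single library except BRCA2 siRNA with EGF C and control siRNA with EGF B or C (-1.82 to -1.24, adjusted p = 0.0593 to 0.131). With control siRNA it was lost without control siRNA without EGF A (-2.23, adjusted p = 0.0639) or C (-2.35, adjusted p = 0.0515).

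BTG2 (ENSG00000159388), an antiproliferative cofactor of mRNA deadenylation, stood apart in a single group. Its values with BRCA2 siRNA were 8.98, 9.20 and 9.45 without EGF, against 9.25, 9.31 and 9.12 with EGF, and these overlap (-0.02 ± 0.11, adjusted p = 0.911). With control siRNA it was at 10.03 and 10.02 without EGF, against 9.09, 9.14 and 9.12 with EGF, a rise of 1.88-fold (0.91 ± 0.13, adjusted p = 0.000186). The damage-inducible gene GADD45A, the RNA-binding protein ZMAT3, the CDK4-binding regulator SERTAD1, the stress sensor SESN1 and the kinases PLK2 and PLK3 did not pass in either comparison. GADD45A had the largest difference among these, -0.95 ± 0.45 with BRCA2 siRNA (adjusted p = 0.137) and -1.0 ± 0.50 with control siRNA (adjusted p = 0.119). SESN1, at -0.04 with BRCA2 siRNA and 0.30 with control siRNA, passed with control siRNA under quantile normalization (0.39, adjusted p = 0.0367), as did PLK2 (0.34, adjusted p = 0.0311).

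Of the 4 genes of DNA repair and nucleotide supply 3 fell under both siRNAs, against 12.2% of all genes tested. RRM2B (ENSG00000048392), the p53-inducible small subunit of ribonucleotide reductase, was at 11.05, 11.08 and 10.88 without EGF, against 12.06, 12.10 and 11.82 with EGF, in cells with BRCA2 siRNA. Its values with control siRNA were 10.76 and 10.82 without EGF, against 12.12, 11.93 and 11.87 with EGF. The gap between the media exceeded the spread of the replicates under both siRNAs. The fall was 1.99-fold with BRCA2 siRNA (-0.99 ± 0.10, adjusted p = 0.000343) and 2.27-fold with control siRNA (-1.18 ± 0.11, adjusted p = 2.16e-05). DDB2 (ENSG00000134574), a damage sensor of nucleotide excision repair whose promoter is printed above, fell, at -0.40 ± 0.08 with BRCA2 siRNA and -0.50 ± 0.09 with control siRNA (adjusted p = 0.00597 and 0.00112). XPC (ENSG00000154767), which recognises damage in the same pathway, differed by -0.60 ± 0.16 with BRCA2 siRNA (adjusted p = 0.0215) and -0.48 ± 0.18 with control siRNA (adjusted p = 0.0483). With control siRNA the XPC call held under 5 of 21 other settings. Of the single libraries, only BRCA2 siRNA with EGF B or C and control siRNA with EGF C could be left out without losing it (-0.53 to -0.32 and adjusted p = 0.064 to 0.194 where lost). With BRCA2 siRNA it was lost without BRCA2 siRNA without EGF A, B or C, or with EGF A or B (-0.63 to -0.45, adjusted p = 0.0511 to 0.0685). POLH, a translesion DNA polymerase, differed by 0.02 with BRCA2 siRNA and 0.00 with control siRNA and did not pass.

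Among the 4 genes of metabolism and mitochondria TIGAR and SPATA18 fell under both siRNAs, against 12.2% of all genes tested. FDXR and TP53I3 did not pass. TIGAR (ENSG00000078237), a fructose bisphosphatase that slows glycolysis, was at 10.03, 9.85 and 9.63 without EGF, against 10.46, 10.41 and 10.36 with EGF, in cells with BRCA2 siRNA. Its values with control siRNA were 9.04 and 9.23 without EGF, against 10.49, 10.30 and 10.26 with EGF. The 6 libraries with EGF lay within a narrow range, and the control libraries without EGF were the lowest. TIGAR fell 1.48-fold with BRCA2 siRNA (-0.57 ± 0.11, adjusted p = 0.0049) and 2.32-fold with control siRNA (-1.21 ± 0.12, adjusted p = 3.19e-05). SPATA18, a regulator of mitochondrial quality, fell, at -0.39 with BRCA2 siRNA and -0.40 with control siRNA (adjusted p = 0.00522 and 0.00305). FDXR, the reductase of mitochondrial ferredoxin, differed by -0.27 ± 0.10 with BRCA2 siRNA (adjusted p = 0.0741) and 0.07 ± 0.12 with control siRNA (adjusted p = 0.616). The quinone oxidoreductase TP53I3 differed by -0.15 and 0.04.

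The 7 genes of cell death, survival and surface proteins went both ways. AEN and EDA2R fell under both siRNAs, against 12.2% of all genes tested. AEN (ENSG00000181026), a nuclease of apoptosis with a p53 motif in its promoter above, was at 10.75, 10.70 and 10.52 without EGF, against 11.35, 11.32 and 11.05 with EGF, in cells with BRCA2 siRNA. In cells with control siRNA it was at 9.73 and 9.95 without EGF, against 11.44, 11.20 and 10.99 with EGF. As for TIGAR, the control libraries without EGF were the lowest and those with BRCA2 siRNA without EGF lay between them and the libraries with EGF. The fall was 1.5-fold with BRCA2 siRNA (-0.58 ± 0.13, adjusted p = 0.00841) and 2.58-fold with control siRNA (-1.37 ± 0.14, adjusted p = 3.58e-05). EDA2R (ENSG00000131080), a receptor of the tumour necrosis factor receptor family, fell, at -0.82 ± 0.16 with BRCA2 siRNA and -1.29 ± 0.18 with control siRNA (adjusted p = 0.00477 and 0.000172).

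PERP, TP53INP1 and KITLG rose in this group. PERP (ENSG00000112378), a desmosome protein of epithelia that p53 and its relative p63 induce, was at 13.39, 13.75 and 14.18 without EGF, against 13.08, 13.17 and 13.08 with EGF, in cells with BRCA2 siRNA. With control siRNA it was at 15.15 and 15.18 without EGF, against 13.04, 13.17 and 13.14 with EGF. The control libraries without EGF exceeded every other library, and the BRCA2 siRNA libraries without EGF lay above those with EGF and spread more. PERP rose 1.58-fold with BRCA2 siRNA (0.66 ± 0.15, adjusted p = 0.00978) and 4.14-fold with control siRNA (2.05 ± 0.17, adjusted p = 1.18e-05). TP53INP1 (ENSG00000164938), a cofactor of p53 in cell death, was at 8.65, 8.91 and 9.26 without EGF, against 8.20, 7.69 and 8.63 with EGF, in cells with BRCA2 siRNA, and did not pass (0.76 ± 0.29, adjusted p = 0.0733). It did pass without replicate C of BRCA2 siRNA with EGF (0.99, adjusted p = 0.035) or of control siRNA with EGF (0.76, adjusted p = 0.0231). With control siRNA it was at 10.32 and 9.93 without EGF, against 7.72, 7.88 and 8.76 with EGF, a rise of 4.0-fold (2.00 ± 0.33, adjusted p = 0.000507). KITLG, the ligand of the receptor KIT, rose with control siRNA (0.43 ± 0.08, adjusted p = 0.00157) and differed by 0.09 ± 0.08 with BRCA2 siRNA (adjusted p = 0.416). PHLDA3, an inhibitor of the kinase AKT, and the antiviral protein TRIM22 did not pass under either siRNA. PHLDA3 differed by 0.30 with control siRNA, which passed under quantile normalization (0.47, adjusted p = 0.011) and without control siRNA with EGF B (0.42, adjusted p = 0.0176).

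**Figure D3:**
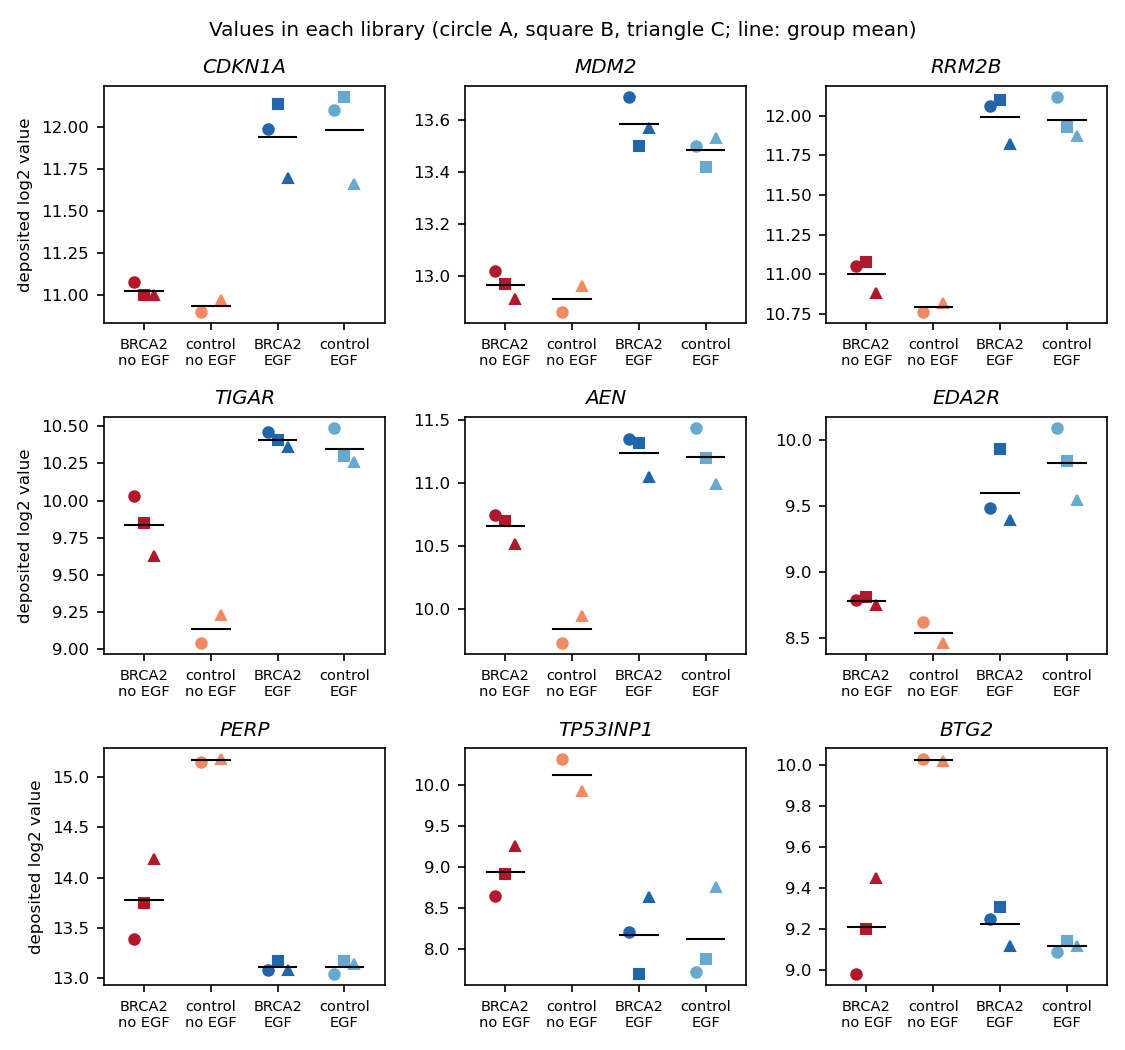
Deposited value, taken as log2, of 9 p53 target genes in every library. Circle, square and triangle mark replicates A, B and C, the line is the group mean, and each panel has its own axis. CDKN1A, MDM2, RRM2B, TIGAR, AEN and EDA2R are lower in the groups without EGF, and PERP, TP53INP1 and BTG2 are highest in control siRNA without EGF, where PERP was at 15.15 and 15.18.

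Replicates B and C differed in the cells with EGF, in some of these genes more than the media did. Between B and C, 8 of the 30 genes (26.7%, against 13% of all genes) differed by at least 0.5 on the log2 scale in the same direction under both siRNAs: GDF15, GADD45A, MDM4, XPC and SERTAD1 higher in B, and ZMAT3, TP53INP1 and POLH higher in C. GDF15 was 1.99 higher in B with BRCA2 siRNA and 2.50 higher with control siRNA, GADD45A 1.65 and 1.81. Without EGF, 0 of the 30 genes differed that much between B and C of BRCA2 siRNA, where 1211 of all 17945 genes did. GADD45A was at 12.64, 12.86 and 12.92 without EGF, against 13.73, 14.59 and 12.94 with EGF, in cells with BRCA2 siRNA, and at 12.73 and 12.89 without EGF, against 14.26, 14.49 and 12.68 with EGF, with control siRNA. Control siRNA with EGF C lay among the libraries without EGF and BRCA2 siRNA with EGF C just above them, while the A and B libraries with EGF lay well above.

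Leaving out control siRNA with EGF C, GADD45A passed with control siRNA (-1.57, adjusted p = 0.00433) and with BRCA2 siRNA (-0.95, adjusted p = 0.0333). It also passed with BRCA2 siRNA without BRCA2 siRNA with EGF C (-1.35, adjusted p = 0.0443). ZMAT3 (1.07, adjusted p = 0.00457), SERTAD1 (-0.77, adjusted p = 0.0219) and SESN1 (0.41, adjusted p = 0.0189) passed with control siRNA without that same control library. SERTAD1 passed too without control siRNA without EGF C (-0.91, adjusted p = 0.0448). Within replicate letters MDM2 differed by -0.67, -0.53 and -0.66 with BRCA2 siRNA (A, B and C) and by -0.64 and -0.58 with control siRNA (A and C). RRM2B differed by -1.02, -1.02 and -0.93 with BRCA2 siRNA and by -1.36 and -1.04 with control siRNA. CDKN1A differed by -0.91, -1.14 and -0.70 with BRCA2 siRNA and by -1.20 and -0.69 with control siRNA. In these 3 genes every letter gave the same sign, which already followed from the lack of overlap between the media. In the 7 libraries of replicates B and C alone, control siRNA without EGF is the single library C, which is assumed to vary like the libraries of the other groups. All 13 genes that fell were still below 0 there under both siRNAs. Their libraries did not overlap between the media, so these signs were fixed in advance and add no support. With BRCA2 siRNA 0 targets and 46 of all genes tested passed, and with control siRNA 7 targets passed (RRM2B, TIGAR, AEN, FBXO22, EDA2R, PERP and BTG2) and 1975 of all genes. CDKN1A then differed by -0.92 with BRCA2 siRNA (adjusted p = 0.11) and -0.95 with control siRNA (adjusted p = 0.0684), and MDM2 by -0.60 (adjusted p = 0.0882) and -0.52 (adjusted p = 0.0614).

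**Figure D4:**
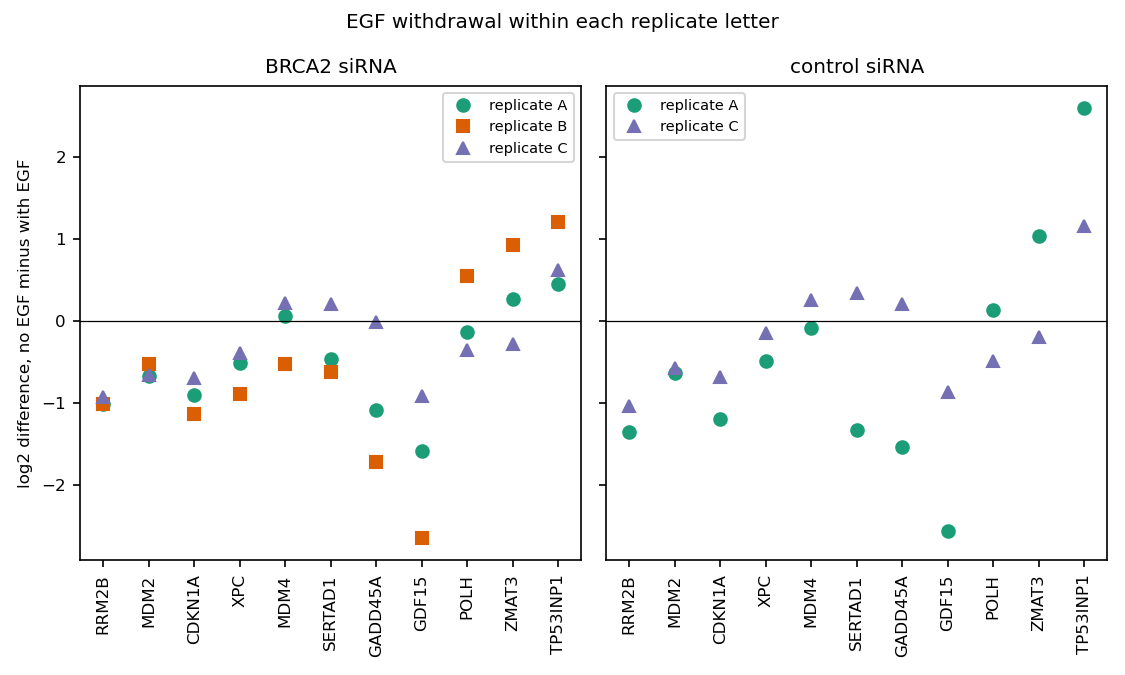
EGF withdrawal difference (log2, without minus with EGF) within each replicate letter, with BRCA2 siRNA on the left and control siRNA on the right, where replicate B has no library without EGF. RRM2B, MDM2 and CDKN1A, shown for comparison, lie below 0 for every letter, which their lack of overlap between the media fixed. GADD45A is at -1.72 for B and -0.02 for C with BRCA2 siRNA and at -1.54 for A and 0.21 for C with control siRNA.

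The BRCA2 siRNA comparison without EGF asks whether these genes differ between the siRNAs once the growth factor is absent. In these libraries TIGAR, AEN and FBXO22 were higher with BRCA2 siRNA, and PERP, BTG2, TP53INP1 and PHLDA3 were lower. These are 7 of the 30 genes, or 23.3%, against 20.5% of all genes tested (11.2% higher, 9.36% lower), so the share called was near that of all genes. The median of the 30 was -0.053, beside 0.006 for all genes, and under quantile normalization it was -0.137. Markers of other cell types differed in the same comparison: of 9 fibroblast and mesenchymal markers 4 were lower and 1 higher with BRCA2 siRNA (median -0.73), of 10 basal markers 2 were lower, and of 6 luminal markers 2 were lower, KRT8 among them at -0.76, and 1 higher. The leukocyte marker CD14 was at -1.04 and the endothelial marker KDR at -1.89. Their part in the differences of the p53 target genes was not tested. The 7 genes include 6 that passed the withdrawal test with control siRNA, and the comparisons share the control libraries without EGF.

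TIGAR was at 10.03, 9.85 and 9.63 with BRCA2 siRNA, against 9.04 and 9.23 with control siRNA, and AEN at 10.75, 10.70 and 10.52, against 9.73 and 9.95. Neither gene overlapped between the siRNAs, but neither did 62.3% of all genes at these group sizes (33.2% higher, 29% lower), and of the 30 targets 11 lay wholly higher and 13 wholly lower with BRCA2 siRNA. TIGAR was 1.63-fold higher (0.70 ± 0.12, n = 3 and 2, adjusted p = 0.00421), AEN 1.76-fold (0.81 ± 0.14, adjusted p = 0.0041) and FBXO22 1.31-fold (0.39 ± 0.10, adjusted p = 0.0179). PERP, at 13.39, 13.75 and 14.18 with BRCA2 siRNA, against 15.15 and 15.18 with control siRNA, was 2.62-fold lower (-1.39 ± 0.17, adjusted p = 0.00147). BTG2 was 1.76-fold lower (-0.82 ± 0.13, adjusted p = 0.00253), TP53INP1 2.27-fold (-1.18 ± 0.33, adjusted p = 0.0269) and PHLDA3 1.35-fold (-0.43 ± 0.13, adjusted p = 0.0415). PERP and BTG2 thus stood nearer to their levels with EGF in the BRCA2 siRNA libraries than in the control libraries.

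CDKN1A and MDM2 did not pass in this comparison: CDKN1A differed by 0.09 with a 95% interval from -0.25 to 0.43, and MDM2 by 0.06 with an interval from -0.12 to 0.24. Without control siRNA without EGF A, which leaves that group 1 library assumed to vary like the others, 2 of the 7 calls held, those of PERP and BTG2. TIGAR was then at 0.61 (adjusted p = 0.0699) and AEN at 0.70 (adjusted p = 0.0688). FBXO22 and TP53INP1 lost their calls without any one of BRCA2 siRNA without EGF A or B and control siRNA without EGF A or C (FBXO22 0.30 to 0.47, adjusted p = 0.0541 to 0.182; TP53INP1 -1.38 to -0.99, adjusted p = 0.0719 to 0.199). PHLDA3 lost its call without any of these 4, BRCA2 siRNA with EGF A or C, or control siRNA with EGF A (-0.43 to -0.38, adjusted p = 0.0523 to 0.19). In replicates B and C alone 0 of the 7 passed, as did 0 of all genes; PERP was then at -1.21 and AEN at 0.66. KITLG passed without BRCA2 siRNA without EGF C (-0.29, adjusted p = 0.0442) and under quantile normalization (-0.35, adjusted p = 0.0164), where FDXR also passed (-0.37, adjusted p = 0.0377).

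With EGF, 0 of the 30 p53 target genes passed between BRCA2 siRNA and control siRNA in limma, and 0 had an unadjusted p under 0.05. Among all genes 1 passed (0.00557%), and 508 (2.83%) had an unadjusted p under 0.05. The 30 differences ranged from -0.22 to 0.19 with a median of 0.029. CDKN1A differed by -0.04 with a 95% interval from -0.34 to 0.26 and MDM2 by 0.10 with an interval from -0.06 to 0.27. GDF15, with an interval from -1.46 to 1.02, and GADD45A, from -1.05 to 0.93, had much wider intervals. This fit does not pair the letters, though deviations of the siRNAs with EGF were correlated within B (0.70) and within C (0.70). Within letters A, B and C GDF15 differed by -0.37, -0.40 and 0.11, and GADD45A by -0.54, 0.10 and 0.26. With a replicate block 0 targets passed too. KITLG was the only target whose libraries did not overlap, against 5.88% of all genes, at 10.96, 11.11 and 10.99 with BRCA2 siRNA and 10.95, 10.89 and 10.89 with control siRNA (0.11 ± 0.08, adjusted p = 0.999). A p that misses the threshold does not show that the siRNAs act alike.

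**Figure D5:**
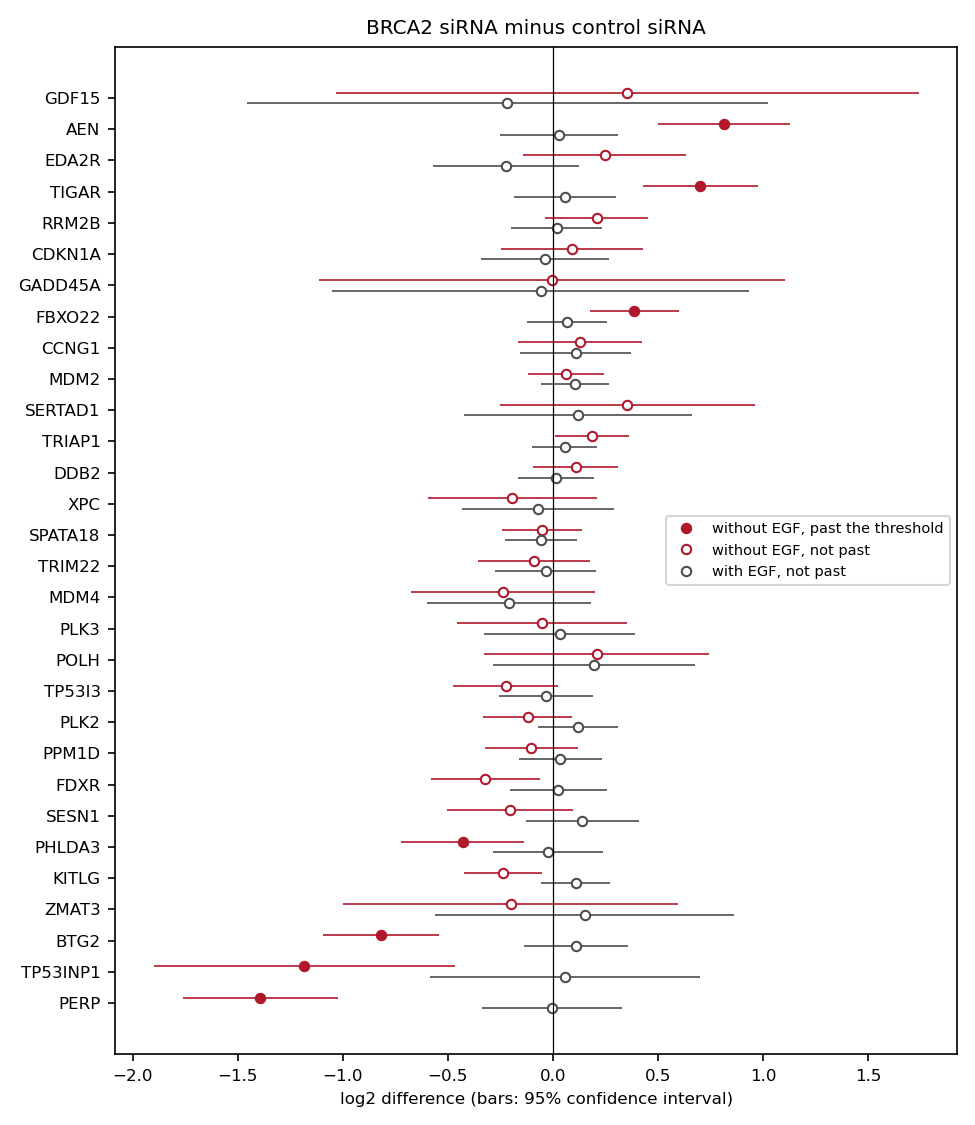
Log2 difference between BRCA2 siRNA and control siRNA for the 30 p53 target genes, without EGF in red and with EGF in grey; bars are 95% confidence intervals and filled points passed the threshold. Without EGF the filled points are AEN, TIGAR and FBXO22 on the right and PERP, TP53INP1, BTG2 and PHLDA3 on the left, and with EGF no point is filled.

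The difference between the withdrawal effects was tested as an interaction, taken as the difference with BRCA2 siRNA less the difference with control siRNA. PERP (-1.39 ± 0.23, adjusted p = 0.0235) and BTG2 (-0.93 ± 0.17, adjusted p = 0.0276) passed, 2 of 30 genes, both lower, against 3.32% of all genes (1.38% higher, 1.93% lower). Their rise without EGF was smaller with BRCA2 siRNA, where BTG2 did not pass. AEN (0.79 ± 0.19, adjusted p = 0.0507) and TIGAR (0.64 ± 0.17, adjusted p = 0.0583) fell less with BRCA2 siRNA by their values but did not pass this test. AEN passed under quantile normalization (0.74, adjusted p = 0.0376) and the stricter filter (adjusted p = 0.0483). Both passed without BRCA2 siRNA without EGF C (AEN 0.86, adjusted p = 0.0391; TIGAR 0.75, adjusted p = 0.0237) and without control siRNA with EGF C (AEN 0.90, adjusted p = 0.0178; TIGAR 0.69, adjusted p = 0.0348), where TP53INP1 also passed (-1.56, adjusted p = 0.0264). The PERP call was lost without BRCA2 siRNA without EGF B, control siRNA without EGF A or C, BRCA2 siRNA with EGF C or control siRNA with EGF A (-1.40 to -1.35, adjusted p = 0.0603 to 0.142). The BTG2 call was lost without the same libraries and without BRCA2 siRNA without EGF A or BRCA2 siRNA with EGF A (-0.98 to -0.81, adjusted p = 0.052 to 0.142). CDKN1A (0.13, interval -0.33 to 0.58), RRM2B (0.19, -0.14 to 0.52) and MDM2 (-0.04, -0.29 to 0.20) did not pass.

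Other genes of the pathway were taken from lists. They are read against the shares of all genes called without EGF, 13.8% lower and 13.4% higher with BRCA2 siRNA, and 26.1% lower and 24.7% higher with control siRNA. Of 11 death genes of the BCL2 and death receptor families and the apoptosome, all past the filter, 2 fell and 0 rose without EGF with BRCA2 siRNA, and 5 fell and 0 rose with control siRNA. The pore-forming BAX differed by -0.39 with BRCA2 siRNA and -0.66 with control siRNA, and the death receptor TNFRSF10A by -0.41 and -0.72. The BH3-only protein PMAIP1 was at -0.92 with BRCA2 siRNA (adjusted p = 0.0518) and fell by 1.61 with control siRNA (adjusted p = 0.00323). Of 40 further direct p53 targets 10 fell and 2 rose with BRCA2 siRNA, and 12 fell and 8 rose with control siRNA, medians -0.18 and -0.23. These are 25% lower and 5% higher with BRCA2 siRNA, and 30% lower and 20% higher with control siRNA, where the shares lay near those of all genes. The lysosomal autophagy gene DRAM1 rose by 0.56 with BRCA2 siRNA and 0.73 with control siRNA, and TM7SF3, a membrane protein, fell, at -0.44 and -0.65.

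Among 22 activators and regulators of p53, 5 fell and 2 rose with BRCA2 siRNA (22.7% and 9.09%), and 5 fell and 3 rose with control siRNA (22.7% and 13.6%, not above the shares of all genes). The p53 relative TP73 rose by 1.79 ± 0.40 with BRCA2 siRNA (adjusted p = 0.00895) and 2.43 ± 0.45 with control siRNA (adjusted p = 0.00107), while the checkpoint kinase CHEK2 fell, at -0.28 with BRCA2 siRNA and -0.53 with control siRNA. Of 20 cell cycle genes that p21 lowers through the DREAM repressor complex, 9 fell and 0 rose without EGF with BRCA2 siRNA (median -0.37), and 17 fell and 0 rose with control siRNA (median -0.99). CDKN1A itself fell in the same comparisons. The mitotic kinase AURKA differed by -0.69 with BRCA2 siRNA and -1.39 with control siRNA. Between the siRNAs without EGF 17 of these 20 (85%) were higher and 0 lower with BRCA2 siRNA (median 0.74). Of all genes tested 11.2% were higher and 9.36% lower there. CDC20, an activator of the anaphase-promoting complex, was at 0.97 ± 0.13 (adjusted p = 0.00193). The interaction was past the threshold in 9 of 20 (45%), all higher, against 1.38% higher and 1.93% lower among all genes.

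Markers of other cell types moved with EGF withdrawal too. Of 10 fibroblast and mesenchymal markers 9 passed the filter, COL1A2 lying below it, and of these 4 rose and 1 fell with BRCA2 siRNA, and 7 rose and 1 fell with control siRNA. The mean log2 level of all 10, COL1A2 included, ranged from 7.76 to 8.32 in BRCA2 siRNA without EGF and from 8.52 to 8.56 in control siRNA without EGF. With EGF it ranged from 7.38 to 7.59 in BRCA2 siRNA and from 7.37 to 7.54 in control siRNA. The mean of the 10 basal markers ranged from 15.47 to 15.61 and 15.70 to 15.71 without EGF, against 15.08 to 15.63 and 15.02 to 15.62 with EGF, in the same order of siRNAs, with 4 rising and 2 falling under either siRNA. Of the 10 luminal markers 6 passed the filter, with 1 rising and 2 falling with BRCA2 siRNA and 3 rising and 1 falling with control siRNA. The leukocyte marker CD14 rose under both siRNAs, and of the endothelial markers past the filter KDR rose by 2.51 and TEK fell, at -1.13, with control siRNA. The part of these changes in the results for the p53 target genes was not tested. Exons of 12 of the 30 genes overlap another gene in GENCODE, 10 of them on the opposite strand, such as CDKN1A with DINOL, and whether counting used strand is not given in the sources used here.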

How the data were processed

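RNA was sequenced from 11 libraries of hTert-HME1 cells in 4 groups. The authors deposited a table of 40460 Ensembl genes in log2 units, from -2.94 to 20.62. Per the submitters' processing notes, hg19, TopHat2 2.0.11, DESeq2 and limma were used, with no roles. Of the counter, the annotation and the transform, each is not given in the sources used here; depth is unknown, and no pseudocount was added. Symbols came from a RefSeq-based name table (37585 identifiers, 92.9%).

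The 17945 genes with a log2 value of at least 3.32 (a linear 10) in 2 or more libraries were tested. A linear model of the 4 groups was fitted with limma 3.58.1 in R 4.3.3, with moderation and a mean-variance trend and 7 residual degrees of freedom. Tests were two-sided, and p-values were adjusted over all genes by Benjamini and Hochberg with a threshold of 0.05. The labels call the replicates biological but name no separate cultures, so p-values measure the spread between these libraries, which may be partly technical. The script was tested on simulated data.

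The genes, roles and lists were chosen with earlier results of these data known. All member genes are named, with up to 4 genes per other list by smallest p. The replicate letters are not known to pair the libraries and were not taken as pairs. Of 15 same-letter pairs 2 had correlated deviations above 0.1 (range -0.37 to 0.70). Those 2 joined the siRNAs with EGF, in replicate B (0.70) and in replicate C (0.70). The centring on replicate A pushes deviations of the A libraries against each other. Correlations among the A libraries therefore cannot show whether the letters pair. Promoters came from RefSeq. Alternatives were no filter, a linear minimum of 100, quantile normalization, no trend, the groups alone, a term for replicate A, a replicate block, replicates B and C alone, and each library left out. After the data were seen, leaving out all replicate B or all replicate C libraries was added.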

Additional observations from a re-analysis of the deposited data

Results flagged for a closer look

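The EGF withdrawal effects of 2 of the 30 p53 target genes (6.67%) differed between the siRNAs, against 3.32% of all genes tested. This was a test of the difference itself in limma. For PERP the interaction was -1.39 on the log2 scale (adjusted p = 0.0235): the withdrawal difference was 0.66 with BRCA2 siRNA and 2.05 with control siRNA. For BTG2 it was -0.93 (adjusted p = 0.0276): the difference was -0.02 with BRCA2 siRNA and 0.91 with control siRNA. Both rest on 2 control libraries without EGF. The PERP call held under 13 of 20 other settings and the BTG2 call under 11 of 20. Groups of 2 or 3 libraries are too small for a test of single outlying samples.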

How the results depend on the processing

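Of 40 calls on the p53 target genes over the 5 comparisons, 7 held under every one of the 21 other settings (AEN, BTG2, EDA2R, FBXO22, PERP, RRM2B and TIGAR, each for EGF withdrawal with control siRNA), and 0 changed sign. Leaving out libraries could not change the sign of a withdrawal or siRNA call, because the libraries of those groups did not overlap. Another 19 results passed under some setting only. The number of targets lower in both withdrawals was 13, and between 11 and 15 under the others except replicates B and C alone, where it was 0. Depth could not be weighed.

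The following values moved, and where fewer libraries were fitted the test had fewer degrees of freedom; otherwise the cause was not tested. With EGF, the number of all genes past the threshold between the siRNAs was 0, in place of 1, under the stricter filter, the groups alone, the term for replicate A, the replicate block, replicates B and C alone, and without all B or all C libraries. Quantile normalization gave target medians of -0.129 for withdrawal with control siRNA, -0.137 between the siRNAs without EGF and -0.139 for the interaction, where 1 target was higher and 2 lower, and it moved the median of all genes by less than 0.1. The groups alone gave 6776 genes and 13 targets between the siRNAs without EGF. For the interaction 375 genes passed with no trend. With the replicate block 930 genes and 4 targets passed the interaction. The letters are not known to pair the libraries. Of the 11 libraries 4 correlated best with their own letter, but the centring lowers such correlations within A, so this count cannot decide the pairing. With the block all 40 calls held, and TP53INP1 (0.76, adjusted p = 0.0246) and GADD45A (-0.95, adjusted p = 0.0439) passed for withdrawal with BRCA2 siRNA.

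Replicates B and C alone gave 46 genes, 0 targets and a target median of -0.207 for withdrawal with BRCA2 siRNA, 1975, 7 and -0.134 for withdrawal with control siRNA, 0 genes and 0 targets between the siRNAs without EGF, and 0, 0 and -0.115 for the interaction. Without all B libraries 3001 genes passed for withdrawal with BRCA2 siRNA, and 0 genes and 0 targets for the interaction. Without all C libraries the target medians of withdrawal were -0.341 with BRCA2 siRNA and -0.339 with control siRNA, 2150 genes passed between the siRNAs without EGF, and 209 genes and 4 targets passed the interaction.

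Leaving out a library of control siRNA without EGF leaves 1 in that group, assumed to vary like the other groups. Leaving out each library in turn gave 2228 to 6196 genes, 12 to 16 targets and medians of -0.354 to -0.218 for withdrawal with BRCA2 siRNA, and 6070 to 10023 genes, 15 to 21 targets and -0.328 to -0.170 with control siRNA. Between the siRNAs it gave 515 to 4766 genes, 2 to 8 targets and -0.078 to -0.015 without EGF, and 0 to 1 genes, 0 targets and 0.010 to 0.071 with EGF. For the interaction it gave 0 to 1606 genes, 0 to 5 targets and -0.081 to -0.004. The lowest counts of genes without EGF and for the interaction came without control siRNA without EGF A.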
